A study of Mus musculus with 12 samples.

Results

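The replication-dependent core histone genes were followed through mouse granulopoiesis, the making of granulocytes in the bone marrow. They were chosen by name: a row of the array table counted where it carried exactly 1 gene symbol and that symbol began with H2ac, H2bc, H3c or H4c and a number, the current names of the Hist1 and Hist2 cluster genes, or with the older Hist names. The rule gave 22 genes of the 19937 tested, each with 1 row: 4 H2A, 9 H2B, 3 H3 and 6 H4 genes. Of these, 18 belong to the Hist1 cluster and 4 (H2bc18, H2bc21, H3c15 and H4c14) to the Hist2 cluster. Marrow of C57BL/6 mice had been sorted by flow cytometry into 4 untreated populations, and the messenger RNA of each was read on 3 Affymetrix Mouse Gene ST arrays, 12 arrays altogether. LSK cells, named for the phenotype Lin- Sca1+ cKit+, include the stem cells and the progenitors nearest to them. The later stages, promyelocytes, then myelocytes, then granulocytes, were separated by Gr-1, cKit, CD34 and CD16/32, and lead to the neutrophil. The study used these arrays to look for genes regulated from stage to stage, and the age of the mice is not given in the sources used here.

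Each nucleosome wraps DNA around a core of the histones H2A, H2B, H3 and H4. The replication-dependent genes for these proteins stand in clusters, have no introns, and are transcribed mainly in S phase, when new DNA has to be packaged. Npat, a target of cyclin E and Cdk2, switches them on at sites called histone locus bodies. Their messages end in a stem-loop, bound by Slbp, in place of the poly(A) tail of other messages, and are degraded when DNA synthesis stops. A few, H2bc4 and H2bc21 among them, can also be made as polyadenylated messages in cells that have stopped dividing. The RNA had been copied with random primers, so that a poly(A) tail was not needed for a message to be measured. In bulk samples, fewer cells in S phase and less histone RNA per cell cannot be told apart.

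Upstream sequence was looked up in RefSeq (build GRCm38.p6) for 18 of the 22 genes, H2bc4, H2bc21, H3c7 and H4c14 having no entry, and the 250 bases before each start were searched on both strands. The octamer ATTTGCAT, to which Pou2f1 binds in H2B promoters, was found in 5 of 7 H2B and 3 of 4 H2A genes, in 0 of 2 H3 genes and in 0 of 5 H4 genes, against 1.6% of all 32851 windows. The stretches searched for H2ac8 and H2bc8 overlap by 179 bases and those for H2ac1 and H2bc1 by 220, since these pairs are transcribed away from each other, so that they share their octamers. GGTCCG, the core of the element that Hinfp binds in H4 genes, was found in 4 of 5 H4 genes and in 1 H2B gene (H2bc9), against 6.72% of windows. CCAAT stood in 14 of the 18 and in 33.8% of windows, and TATAAA in 11 of the 18 and in 12.4%. The last 120 bases before the start are shown, with ATTTGCAT and GGTCCG in capitals, for 5 H2B genes, 4 with the octamer and 1 without it (H2bc22), and for 3 H4 genes. They are H2bc3 at chr13:23746614-23746733 (plus strand), H2bc8 at chr13:23571280-23571399 (plus strand), H2bc14 at chr13:21721924-21722043 (plus strand), H2bc18 at chr3:96269580-96269699 (plus strand), H2bc22 at chr13:21787368-21787487 (plus strand), H4c4 at chr13:23581448-23581567 (plus strand), H4c6 at chr13:23551669-23551788 (minus strand) and H4c9 at chr13:22041363-22041482 (minus strand).
H2bc3: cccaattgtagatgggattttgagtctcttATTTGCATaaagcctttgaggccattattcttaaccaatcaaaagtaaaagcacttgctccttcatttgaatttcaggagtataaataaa
H2bc8: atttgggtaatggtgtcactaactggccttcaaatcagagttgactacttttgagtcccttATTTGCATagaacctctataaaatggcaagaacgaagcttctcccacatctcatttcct
H2bc14: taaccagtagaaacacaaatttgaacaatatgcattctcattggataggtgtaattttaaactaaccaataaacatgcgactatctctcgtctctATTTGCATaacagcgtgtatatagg
H2bc18: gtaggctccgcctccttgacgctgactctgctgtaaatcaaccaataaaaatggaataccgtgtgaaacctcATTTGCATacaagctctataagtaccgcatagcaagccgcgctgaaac
H2bc22: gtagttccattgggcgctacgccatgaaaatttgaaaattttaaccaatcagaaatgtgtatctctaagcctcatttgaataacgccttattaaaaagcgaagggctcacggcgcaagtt
H4c4: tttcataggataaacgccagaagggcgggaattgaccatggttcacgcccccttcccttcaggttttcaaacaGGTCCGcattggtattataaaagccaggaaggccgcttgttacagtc
H4c6: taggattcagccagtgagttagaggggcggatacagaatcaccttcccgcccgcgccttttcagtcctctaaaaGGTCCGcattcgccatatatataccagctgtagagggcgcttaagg
H4c9: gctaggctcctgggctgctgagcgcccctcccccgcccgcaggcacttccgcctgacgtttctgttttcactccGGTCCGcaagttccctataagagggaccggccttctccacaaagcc
The octamer began 90 bases before the start of H2bc3, 59 before that of H2bc8, 25 before that of H2bc14 and 48 before that of H2bc18, and the H4 element 46 or 47 bases before the start of H4c3, H4c4, H4c6 and H4c9. A match is a stretch of letters and not a measured binding site.

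All levels are the deposited log2 values. A dim level of 4.51 was set from olfactory and vomeronasal receptor genes, taken as not expressed here, and folds are left out for groups whose mean did not exceed it. A call, higher or lower, needed a fold of at least 2 and a limma p under 0.05 after Benjamini-Hochberg adjustment over all 19937 genes. One gene, H3c7, was dim in all 4 populations, and 7 were dim in granulocytes. For 17 of the 22, an accession of the row also stood on rows of several genes, so that near-identical copies may share signal. Promyelocyte array 3 and granulocyte array 3 were the lowest of their groups for 20 and 15 of the 22 genes (37.9% and 33.9% of all genes). The sums of the stage markers were each highest in the population they name. For LSK markers the sum was 12.9 to 13.3 in LSK cells and 10.9 to 12.1 in promyelocytes. For promyelocyte markers (Mpo, Elane and others) it was 13.9 to 14.4 in promyelocytes and 11.3 to 13.5 in LSK cells. For myelocyte markers it was 15.17 to 15.29 in myelocytes, close to granulocytes (14.94 to 15.16). For granulocyte markers it was 13.9 to 14.1 in granulocytes and 12.6 to 12.9 in myelocytes.

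The core histone genes fell late: 1 of 22 was called between LSK cells and promyelocytes (4.36% of all genes), 0 between promyelocytes and myelocytes (17.5%), and 16 between myelocytes and granulocytes (8.31%), 15 of them lower. By the moderated F test, 18 of the 22 differed among the 4 stages, where 54% of all genes did. The 4 that did not pass were H2ac1 and H2bc22 (adjusted p = 0.119 and 0.0842), H3c15 (0.0988) and H4c9 (0.171). Granulocytes were the lowest stage, by calls against each of the other 3, for 12 of the 22 (4.99% of all genes), and 0 were called highest in any stage. Of all genes, 1.62% were highest in LSK cells, 0.471% in promyelocytes, 0.396% in myelocytes and 1.91% in granulocytes. The 12 were H2ac4, H2ac8, H2ac15, H2bc3, H2bc8, H2bc9, H2bc14, H2bc18, H3c4, H4c4, H4c6 and H4c14, so that all 4 classes were among them. The place of H2bc9 rests on a fold of 2.01 against LSK cells (adjusted p = 0.00569), a call lost without LSK array 1 or 2 or granulocyte array 3, with arrays centred on the 75th percentile, and with quantile or cyclic loess normalization.

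**Figure D1:**
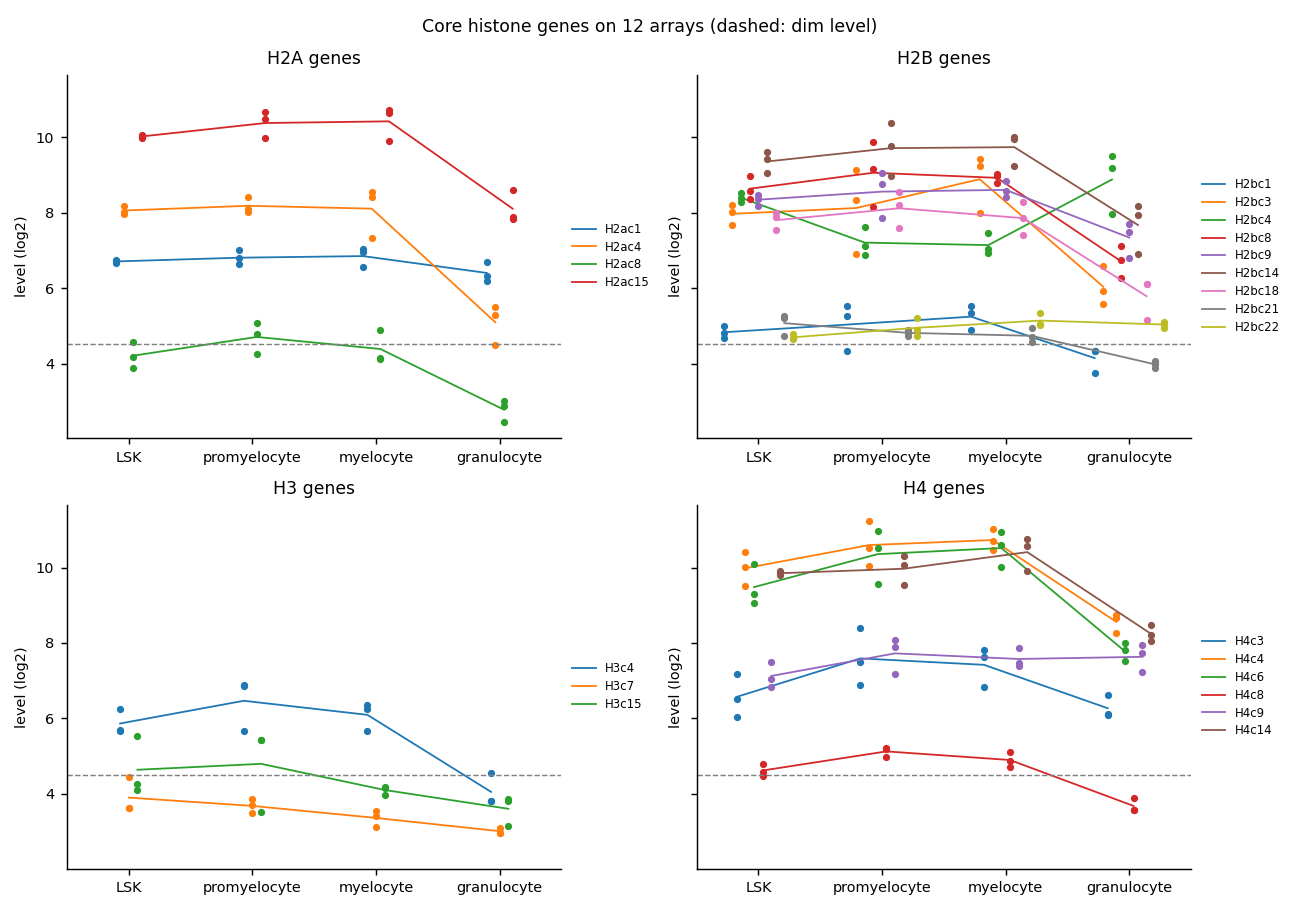
Level (log2) of the 22 core histone genes in LSK cells, promyelocytes, myelocytes and granulocytes, 1 panel for each class; points are the 3 arrays of a population, lines join group means and the dashed line is the dim level of 4.51. Most lines run level over the first 3 populations and drop in granulocytes, while H2bc4 climbs there and H4c9 and H2bc22 do not drop.

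Between LSK cells and promyelocytes 1 of the 22 genes was called lower (2.75% of all genes were) and 0 higher (1.61%). The median difference of the 22 was 0.28, beside 0.04 over all genes. The gene called lower was H2bc4, which codes for an H2B protein: it fell by 1.19 ± 0.30 (SE, adjusted p = 0.0160). Its call was lost without LSK array 2, LSK array 3 or promyelocyte array 3 and when all rows of the table were tested. The 6 H4 genes all had positive differences, from 0.12 in H4c14 to 1.02 ± 0.35 in H4c3 (adjusted p = 0.0726), with a median of 0.61. H4c8 had an adjusted p of 0.0430 with a difference of 0.51, under the fold of 2, and was the one gene with every promyelocyte array above every LSK array (13.5% of all genes were). Without promyelocyte array 3, which lay low for most of these genes, 3 were called higher: H4c3, H4c6 and H3c4. Without LSK array 1, 2 were: H4c3 and H4c6.

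Between promyelocytes and myelocytes 0 of the 22 genes were called in either direction by limma, where 7.61% of all genes were called higher and 9.87% lower. The median difference was -0.07, beside 0.01 over all genes. The differences ran from -0.69 ± 0.44 (H3c15) to 0.76 ± 0.46 (H2bc3), and the arrays of both populations overlapped for every one of the 22, where the myelocyte arrays lay all above for 21.5% of all genes and all below for 22.5%. H2bc3 was called higher without promyelocyte array 1, and H3c15 lower without promyelocyte array 3.

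Between myelocytes and granulocytes 15 of the 22 genes fell, where 5.96% of all genes were called lower, and 1 rose, where 2.35% were called higher. The median difference was -1.44, beside 0.09 over all genes. Every granulocyte array lay below every myelocyte array for 18 of the 22 genes (19.8% of all genes) and above for 1 (24.4%). Of the classes, 3 of 4 H2A genes fell, 6 of 9 H2B genes, 1 of 3 H3 genes and 5 of 6 H4 genes. The 6 genes not called were H2ac1, H2bc21, H2bc22, H3c7, H3c15 and H4c9. Without promyelocyte array 3 and granulocyte array 3 together, 12 fell.

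**Figure D2:**
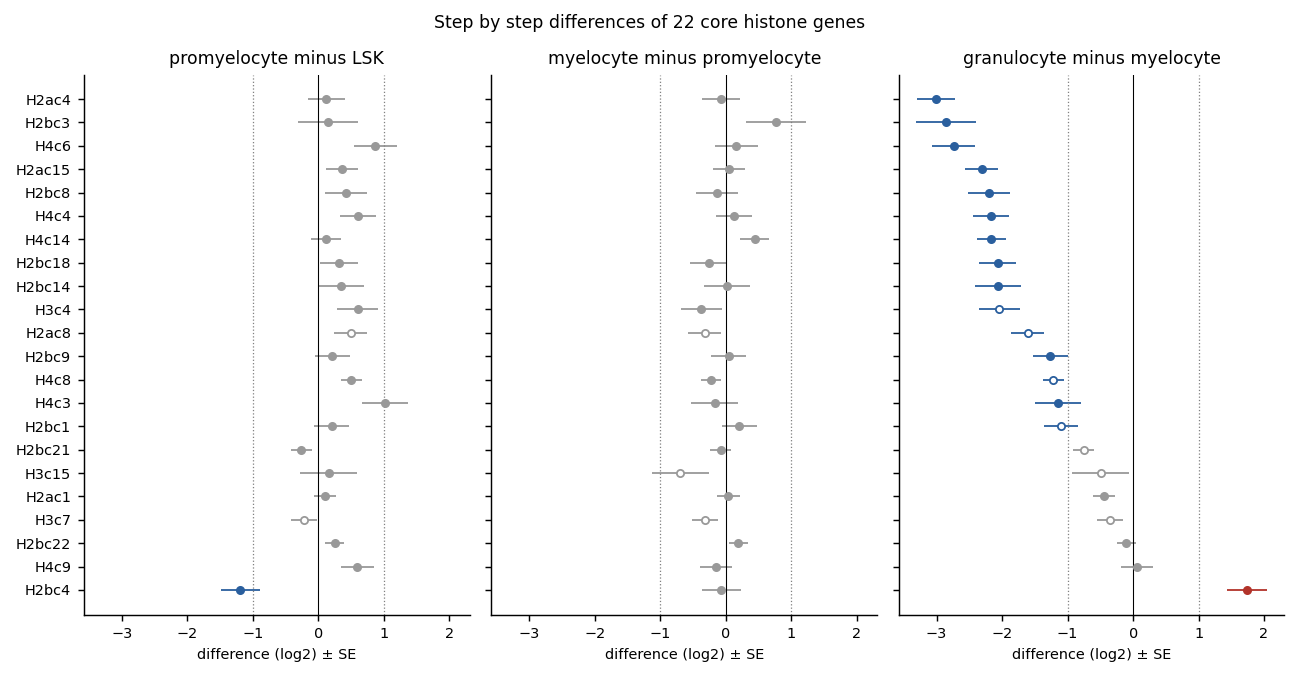
Difference (log2) ± SE of the 22 core histone genes in the 3 successive steps, ordered by the last step; blue is called lower, red called higher and grey not called, open points had a group at or under the dim level, and dotted lines mark a fold of 2. Almost all points lie near 0 in the first 2 steps, and 15 are blue in the last, with H2bc4 in red.

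Of the H2A genes, which code for the histone at the faces of the nucleosome that pairs with H2B, H2ac4 and H2ac15 fell the most. H2ac4 lay at 7.97, 8.02 and 8.18 in LSK cells, 8.43, 8.02 and 8.11 in promyelocytes, 7.34, 8.56 and 8.42 in myelocytes and 5.29, 5.50 and 4.49 in granulocytes. All 3 granulocyte arrays lay below all the others, and the fall from myelocytes was 3.01 ± 0.29 or 8.07-fold (adjusted p = 3.00e-06). H2ac15 was measured at 10.07, 10.01 and 9.98 in LSK cells, 10.67, 10.49 and 9.97 in promyelocytes, 9.91, 10.63 and 10.73 in myelocytes and 7.83, 8.61 and 7.88 in granulocytes. Here too the groups did not overlap, and the fall was 2.32 ± 0.25 or 4.98-fold (adjusted p = 6.65e-06). H2ac8 fell by 1.61 ± 0.25 (adjusted p = 2.26e-04) to a level of 2.78 ± 0.29 (SD, n = 3), and had been above the dim level in promyelocytes alone. H2ac1, whose product (TH2A) is known from the testis, differed by -0.45 ± 0.17 (adjusted p = 0.0764) and was not called in any comparison.

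Of the H2B genes, the partners of H2A, 6 fell and 1 rose. H2bc3 lay at 8.20, 8.03 and 7.69 in LSK cells, 9.13, 8.32 and 6.92 in promyelocytes, 7.98, 9.43 and 9.25 in myelocytes and 5.93, 6.60 and 5.57 in granulocytes. Its granulocyte arrays lay below those of all other groups, although its promyelocyte arrays spread from 6.92 to 9.13, and it fell by 2.85 ± 0.46 or 7.22-fold (adjusted p = 2.70e-04). H2bc8 had levels of 8.97, 8.58 and 8.35 in LSK cells, 9.16, 9.86 and 8.15 in promyelocytes, 8.78, 8.97 and 9.02 in myelocytes and 6.75, 7.13 and 6.28 in granulocytes. The fall was 2.20 ± 0.32 or 4.61-fold (adjusted p = 1.26e-04), with no overlap.

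H2bc14 of the Hist1 cluster and H2bc18 of the Hist2 cluster followed. H2bc14 lay at 9.61, 9.42 and 9.04 in LSK cells, 10.39, 9.78 and 8.96 in promyelocytes, 9.24, 9.96 and 10.01 in myelocytes and 8.18, 7.94 and 6.90 in granulocytes. H2bc18 gave 7.87, 7.99 and 7.53 in LSK cells, 8.56, 8.19 and 7.60 in promyelocytes, 7.42, 7.87 and 8.27 in myelocytes and 6.10, 6.10 and 5.15 in granulocytes. The fall of H2bc14 was 2.06 ± 0.35 (4.18-fold, adjusted p = 4.37e-04) and that of H2bc18 2.07 ± 0.29 (4.20-fold, adjusted p = 7.37e-05). H2bc9 fell by 1.26 ± 0.27 (adjusted p = 0.00277), a call lost without granulocyte array 3. H2bc1, whose product (TH2B) is known from the testis, fell by 1.10 ± 0.26 (adjusted p = 0.00637) to the dim level. That call was lost without myelocyte array 3 or granulocyte array 3 and with arrays centred on the 75th percentile.

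H2bc4 went the other way. H2bc4 stood at 8.27, 8.53 and 8.38 in LSK cells, 7.63, 7.12 and 6.87 in promyelocytes, 7.45, 6.93 and 7.04 in myelocytes and 9.49, 9.17 and 7.97 in granulocytes. It was high in LSK cells, low in both intermediate stages and high again in granulocytes, and all 3 granulocyte arrays exceeded all promyelocyte and myelocyte arrays, with array 3 the lowest of them. The rise from myelocytes was 1.74 ± 0.30 or 3.34-fold (adjusted p = 5.48e-04), and was called in each of the 26 alternative settings. Against LSK cells, the granulocyte level differed by 0.48 ± 0.30 (adjusted p = 0.189). Every accession of the H2bc4 row also stood on rows of several genes. The 6 H2B rows of several genes that name H2bc4 were all called lower from myelocytes to granulocytes. Their differences ran from -3.75 to -1.10, and their signal cannot be assigned to 1 gene. For H2bc21 the difference from myelocytes to granulocytes was -0.76 ± 0.16 (adjusted p = 0.00233), under the fold of 2, with granulocytes dim. H2bc22 lay between 4.64 and 5.33 on all 12 arrays, near the dim level, and differed by -0.10 ± 0.15 (adjusted p = 0.655).

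Of the H3 genes, which code for the histone whose tail carries many of the known regulatory marks, H3c4 fell. H3c4 lay at 6.26, 5.66 and 5.68 in LSK cells, 6.88, 6.87 and 5.65 in promyelocytes, 6.37, 5.67 and 6.25 in myelocytes and 3.81, 3.81 and 4.55 in granulocytes. It fell by 2.04 ± 0.31 (adjusted p = 1.67e-04) to below the dim level on average, although granulocyte array 3 lay at 4.55, just above it. H3c15 was read at 5.54, 4.10 and 4.27 in LSK cells, 5.44, 5.43 and 3.52 in promyelocytes, 4.18, 3.98 and 4.15 in myelocytes and 3.81, 3.86 and 3.14 in granulocytes. On these arrays the spread within LSK cells and promyelocytes was as wide as the differences between groups, and the difference from myelocytes to granulocytes was -0.50 ± 0.44 (adjusted p = 0.456), between 2 dim groups. H3c7 was dim throughout.

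Of the H4 genes, which code for the same protein, 5 of 6 fell. H4c6 lay at 10.09, 9.29 and 9.06 in LSK cells, 10.97, 10.52 and 9.57 in promyelocytes, 10.01, 10.95 and 10.59 in myelocytes and 7.53, 8.00 and 7.81 in granulocytes. H4c4 was at 10.41, 10.01 and 9.52 in LSK cells, 11.22, 10.52 and 10.05 in promyelocytes, 10.46, 11.03 and 10.70 in myelocytes and 8.73, 8.67 and 8.27 in granulocytes. H4c14 reached 9.85, 9.91 and 9.79 in LSK cells, 10.32, 10.06 and 9.53 in promyelocytes, 9.90, 10.74 and 10.58 in myelocytes and 8.21, 8.48 and 8.04 in granulocytes. In all 3 genes each granulocyte array lay below each array of the other populations. H4c6 fell by 2.74 ± 0.33 or 6.67-fold (adjusted p = 2.06e-05), H4c4 by 2.17 ± 0.27 or 4.50-fold (adjusted p = 3.15e-05) and H4c14 by 2.16 ± 0.22 or 4.48-fold (adjusted p = 5.33e-06). H4c8 fell by 1.22 ± 0.16 (adjusted p = 3.47e-05) into the dim range, and H4c3 by 1.15 ± 0.35 (adjusted p = 0.0283).

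The call of H4c3 was lost without myelocyte array 2 or 3, without granulocyte array 2 or 3, with arrays centred on the 75th percentile, with quantile normalization and when all rows were tested. The exception was H4c9. H4c9 lay at 7.50, 7.06 and 6.82 in LSK cells, 8.08, 7.90 and 7.19 in promyelocytes, 7.46, 7.40 and 7.87 in myelocytes and 7.94, 7.74 and 7.23 in granulocytes. Its granulocyte arrays lay among those of promyelocytes and myelocytes, and the difference from myelocytes was 0.06 ± 0.25 (adjusted p = 0.893). H4c9 and H2bc22 are described at length because of their values. The motifs shown above stood both in genes that fell and in genes not called. Of the H2A and H2B genes searched, 7 of 8 with the octamer fell (not H2ac1), as did 2 of 3 without it (H2ac15 and H2bc9, not H2bc22). Of the H4 genes, 3 of 4 with GGTCCG fell (not H4c9), as did H4c8 without it.

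Across the whole path, granulocytes were compared with promyelocytes and with LSK cells. These comparisons share arrays with those above and with each other. Against promyelocytes, 15 of the 22 genes were lower (16.3% of all genes) and 1, H2bc4, was higher (10.1%). Here H3c15 was called lower (-1.19 ± 0.44, adjusted p = 0.0338). That call was lost without promyelocyte array 1 or 2 or granulocyte array 1 or 3, and with arrays centred on the 75th percentile. It was also lost with another estimate of the spread and when all rows were tested. H2bc1 was not called (-0.89 ± 0.26, under the fold of 2). It was called without promyelocyte array 3, with quantile or cyclic loess normalization and with no fold required. The call of H2bc9 against promyelocytes (-1.22 ± 0.27) was lost without promyelocyte array 1 or granulocyte array 3 and with arrays centred on the 75th percentile. That of H4c3 (-1.32 ± 0.35) was lost without promyelocyte array 1. Against LSK cells, 13 were lower (16.5%) and 0 higher (9.59%). H2bc21, was among the 13 (-1.09 ± 0.16, adjusted p = 2.38e-05), a call lost without LSK array 1 and with arrays centred on the 75th percentile, and H4c3 was not (-0.30 ± 0.35, adjusted p = 0.481). Without LSK array 3 or granulocyte array 3, H4c8 was also called against LSK cells. H3c15 was called without LSK array 2 or promyelocyte array 3, and H3c7, dim throughout, without LSK array 1 or 2. With quantile or cyclic loess normalization, each of H4c8, H3c15 and H3c7 was called. With no fold required, H4c8, H3c7 and H2bc1 were. H3c15 was also called with the unadjusted p, in a fit to the 2 groups alone and with the replicate number as a block.

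The histone genes varied more within groups than most genes, and many deviated the same way on an array. The median within-group SD was 0.41 over the 22 genes and 0.21 over all genes. Promyelocyte array 3, lowest for 20 of the 22 genes, was lowest for 37.9% of all genes, and the median deviation of the 22 from their group means was -0.53. Promyelocyte array 1 was the highest of its group for 18 (26.3% of all genes). Myelocyte array 1 was lowest for 17 (34.5%), granulocyte array 3 for 15 (33.9%) and LSK array 3 for 14 (33.9%). The sum of 6 eosinophil markers was 12.2, 8.85 and 12.6 on promyelocyte arrays 1, 2 and 3. The part of such cells in the spread of the histone genes was not tested.

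**Figure D3:**
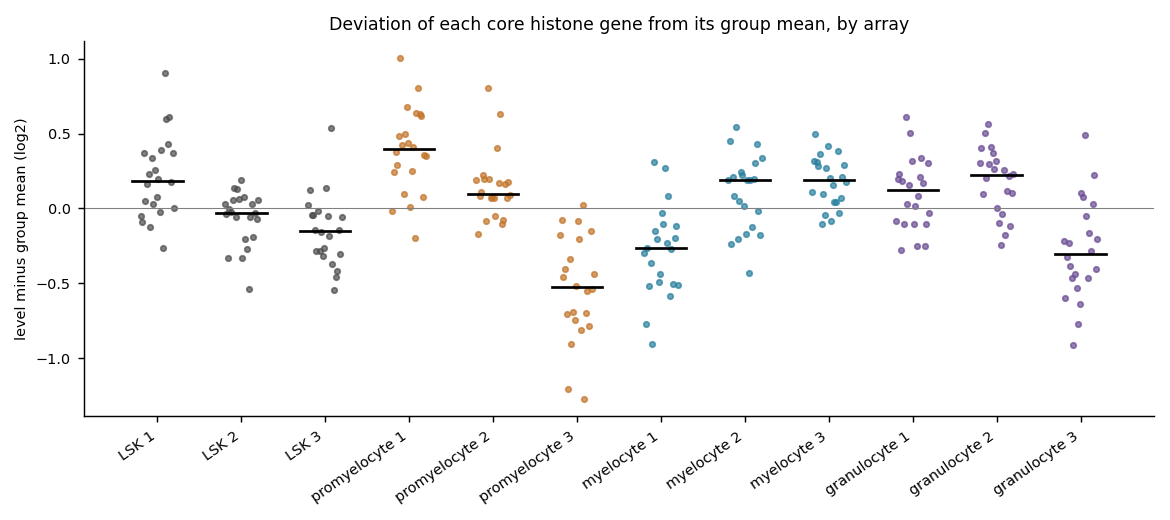
Level of each of the 22 core histone genes minus the mean of its group (log2), by array; each point is a gene and the black bar is the median. Most points lie below 0 on promyelocyte 3 (median -0.53) and above 0 on promyelocyte 1.

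Basophil and mast cell markers also changed between myelocytes and granulocytes. Their sum over 6 genes ranged from 12.3 to 14.02 in myelocytes, with myelocyte array 1 the highest, and from 11.6 to 11.8 in granulocytes. Of the 6, 5 fell (5.96% of all genes). In granulocytes Ms4a2, Cpa3 and Fcer1a were dim, whereas Hdc, an enzyme that makes histamine, lay at 11.56. The sum of 7 monocyte and macrophage markers ranged from 10.0 to 11.5 in myelocytes and from 9.81 to 10.0 in granulocytes. The sum of 6 eosinophil markers ranged from 8.38 to 8.66 in myelocytes and from 8.19 to 8.93 in granulocytes. The part of such cells in the histone result was not tested.

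The array table held 22 further rows that named several histone genes of 1 class or more, which the rule left out because their signal cannot be assigned to 1 gene. In a fit to all 34760 rows, 17 of these 22 rows were lower in granulocytes than in myelocytes (4.6% of all rows) and 0 higher (1.86%), with a median of -1.93. Between LSK cells and promyelocytes 0 were called (1.25% of all rows higher and 2.21% lower), with a median of 0.47, and between promyelocytes and myelocytes 0 again (7.95% and 8.2%), with a median of -0.12. By class, 6 of 7 H2B rows fell, 7 of 9 H3 rows, 3 of 5 H4 rows and the single H2A row. The median of the 9 H3 rows was -2.71. The row shared by H2bc6 and H1f4 lay at 7.72 in myelocytes and 7.73 in granulocytes.

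The linker histones of the H1 family, which bind where DNA enters and leaves the nucleosome, fell outside the naming rule. Of 6 measured, 3 fell from myelocytes to granulocytes (5.96% of all genes). H1f5 fell by 3.28 ± 0.28 or 9.74-fold (adjusted p = 1.14e-06), H1f1 by 1.86 ± 0.24 (adjusted p = 3.57e-05) and H1f3 by 1.17 ± 0.15 (adjusted p = 3.02e-05). H1f1 had already fallen by 2.03 ± 0.24 from promyelocytes to myelocytes (adjusted p = 4.88e-06). H1f2 lay at 8.20, 8.27 and 7.89 in LSK cells, 8.00, 8.35 and 8.40 in promyelocytes, 9.62, 9.59 and 10.27 in myelocytes and 11.03, 10.68 and 9.97 in granulocytes. H1f2 thus rose by 1.58 ± 0.24 or 2.98-fold between promyelocytes and myelocytes (adjusted p = 8.11e-05), and its further difference of 0.73 ± 0.24 in granulocytes (adjusted p = 0.0437) was under the fold of 2. The median of the 6 was -0.52 in the last step, beside 0.09 over all genes. In each population 1 of the 6 was dim, and H1f10 is also counted among the variants described next.

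The 4 core histone entries of the Hist3 and Hist4 clusters were listed too, among them H2bu1-ps, a pseudogene by its name. H4f16 fell by 1.62 ± 0.32 (adjusted p = 0.00152) from myelocytes to granulocytes and H2aw by 1.00 ± 0.23 (adjusted p = 0.00527), and H2aw had also fallen in the step before, by 1.22 ± 0.23 (adjusted p = 5.71e-04). H2bu2 and H2bu1-ps were not called in any step. The 11 measured variants are made outside S phase too. In the last step H2ax (part of the response to DNA breaks) fell by 2.60 ± 0.23 or 6.08-fold. H2az1 fell by 1.56 ± 0.23 and Cenpa, the centromere H3, by 1.07 ± 0.20 in the same step. Macroh2a1, an H2A with a large extra domain, fell by 2.05 ± 0.15 or 4.13-fold in the step before (adjusted p = 3.37e-08). The median of the 11 was -0.28 in the last step. The 11 include H3f3a and H1f8, dim in all 4 populations, and Macroh2a2, which exceeded the dim level in LSK cells alone (4.52). Macroh2a3 was dim in LSK cells and in granulocytes.

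**Figure D4:**
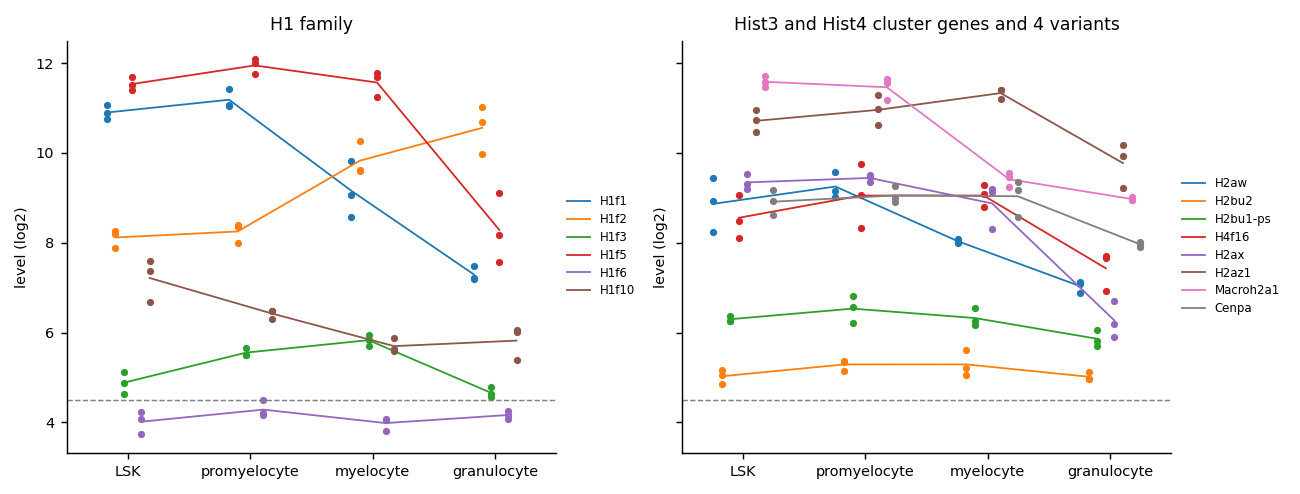
Level (log2) of 6 H1 genes (left) and of 4 Hist3 and Hist4 cluster genes with 4 variants (right) in the 4 populations; points are arrays, lines join group means and the dashed line is the dim level. H1f5, H1f1, H2ax and H4f16 end lowest in granulocytes, while H1f2 climbs from promyelocytes on.

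Genes that switch on histone transcription changed in part. Of 11 measured, 0 were called between LSK cells and promyelocytes (4.36% of all genes). Between promyelocytes and myelocytes 1 rose (7.61%), and between myelocytes and granulocytes 4 fell (5.96%). Npat, the activator of the histone clusters, fell by 1.53 ± 0.23 or 2.88-fold in the last step (adjusted p = 1.84e-04), after a difference of -0.75 ± 0.23 in the one before that was under the fold of 2. Ccne1, Ccne2 and Cdc25a, which drive entry into S phase, fell with it, by 1.21 ± 0.22, 2.11 ± 0.35 and 2.15 ± 0.20. E2f2 was the gene that rose, by 2.54 ± 0.20 or 5.82-fold (adjusted p = 5.78e-08), and it differed by 0.21 ± 0.20 in granulocytes. Hinfp, whose element is in most of the H4 promoters searched, differed by 0.08 in the last step (adjusted p = 0.720).

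Of 23 measured genes that form the 3′ end of histone messages, 4 fell between promyelocytes and myelocytes (9.87% of all genes), with a median of -0.25. Between myelocytes and granulocytes 6 fell (5.96%) and 1 rose (2.35%), with a median of -0.59. The largest falls of the last step were those of Ncbp2, Cstf2, Snrpd3 and Snrpb, which also serve other messages. Lsm10, a subunit of the U7 particle that is particular to histone messages, rose by 1.09 ± 0.20 (adjusted p = 7.87e-04). Slbp, the stem-loop binding protein, differed by -0.85 (adjusted p = 0.0356), under the fold of 2. Of 15 measured genes of export, translation and decay, 3 fell in each of these steps (9.87% and 5.96% of all genes). In the first they were Dis3, Pnpt1 and Ddx19b. In the last they were Pnpt1 (1.86 ± 0.21) and Dis3 (1.66 ± 0.19), both RNA-degrading enzymes, and Eri1. Eri1, an exonuclease that trims the stem-loop, fell by 1.73 ± 0.23 or 3.32-fold (adjusted p = 5.04e-05).

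Histone chaperones, which carry new histones to DNA, fell in both of the later steps. Of 24 measured, 13 fell between promyelocytes and myelocytes (9.87% of all genes), with a median of -1.22. Between myelocytes and granulocytes 13 fell (5.96%), with a median of -1.16. In the first of these steps the largest falls were those of Npm1 (2.51 ± 0.22), Mcm2 (2.32 ± 0.23), Nasp (1.94 ± 0.19) and Nap1l1 (1.89 ± 0.23). In the second they were those of Asf1b (2.86 ± 0.24), Anp32e (2.84 ± 0.26), Rbbp7 (2.10 ± 0.21) and Dek (2.07 ± 0.21). Asf1b, which hands H3 and H4 to the assembly factor CAF-1, differed by 0.04 ± 0.24 between promyelocytes and myelocytes.

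DNA replication and mitosis genes were set beside the histone genes. Of 28 measured replication genes, 26 fell between promyelocytes and myelocytes (9.87% of all genes), with a median of -1.60. Between myelocytes and granulocytes 20 fell (5.96%), with a median of -1.43. The helicase subunit Mcm6 fell by 2.42 ± 0.21 and then by 1.90 ± 0.21. Of 18 measured mitosis genes, 0 were called in the first of these steps (17.5% of all genes), with a median of -0.25. All 18 fell in the second (5.96%), with a median of -2.87. There the spindle motor Kif11 fell by 3.51 ± 0.33 or 11.4-fold. For the 22 core histone genes the counts in the same steps were 0 and 15 lower, with medians of -0.07 and -1.44. These lists were not tested against each other.

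**Figure D5:**
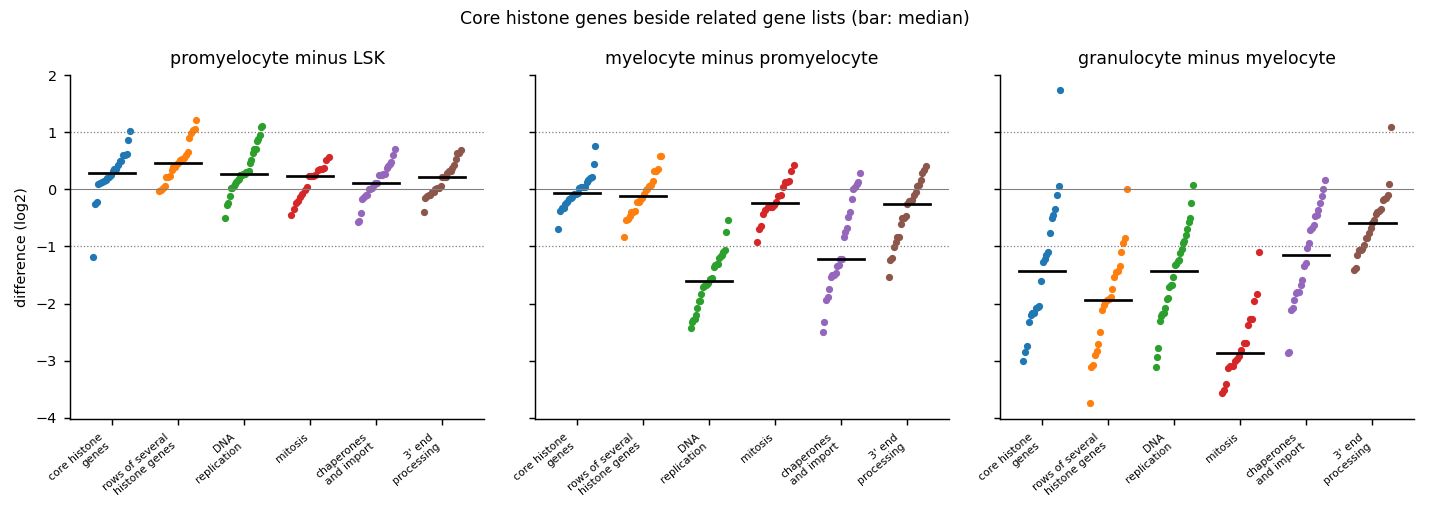
Difference (log2) of each gene in the 3 successive steps for the core histone genes, the rows of several histone genes, and lists of DNA replication, mitosis, chaperone and 3′ end processing genes; each point is a gene or row and the bar is the median. In the middle panel the medians of DNA replication (-1.60) and chaperones (-1.22) lie low, those of the histone genes (-0.07) and mitosis (-0.25) near 0.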

How the data were processed

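Total RNA from the sorted cells had been copied with random hexamers and hybridised by the authors to 12 one-colour arrays. The deposited log2 values were made by the authors with justRMA of Bioconductor (background correction, quantile normalization and median polish; no version is stated) and were used as they stand. Quantile normalization takes the overall distribution of signal as equal between arrays, so an equal change of all messages could not be seen. The labels call arrays of a group biological replicates but do not mention separate animals, and p-values therefore measure only the spread between these samples. The precision is limited by 3 arrays a group.

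The platform's probe table gave the gene names: 21640 of 34760 rows had 1 symbol, 1321 had several and 11799 had none. Only rows with 1 symbol were tested, the highest-mean row standing for a gene (19937 genes). The dim level of 4.51 is the 95th percentile of the means over all 12 arrays of 1194 olfactory and vomeronasal receptor genes. The model had 4 group means and 12 arrays (limma 3.58.1 in R 4.3.3, lmFit and eBayes), with 8 residual and 7.02 prior degrees of freedom, and was tested on simulated data. Values on all arrays are given for the 8 largest called falls and rises of a step without overlap, the 2 highest-mean genes of a class and genes called against the majority. From the other lists, called genes are named, up to 4 a direction and step. The members, lists and tests were chosen with earlier results of these data known, and the H1 and the Hist3 and Hist4 lists after the probe table was seen. Marker sums are the log2 of the summed linear levels. Lists were described by counts and medians and not tested as sets. Deviations of same-numbered arrays correlated over 0.1 in all 3 pairs of promyelocytes and myelocytes (0.18, 0.12 and 0.20) and not in all pairs of the other comparisons. The alternatives were other scalings, filters, row choices, thresholds and spreads, a block for the replicate number, and leaving out single arrays.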

Additional observations from a re-analysis of the deposited data

How the results depend on the processing

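Of 110 differences (22 genes in 5 comparisons) under 26 alternative settings, 0 called differences changed sign. The genes called lower from myelocytes to granulocytes numbered 15, between 12 and 15 with 1 array left out and between 12 and 16 otherwise. Against promyelocytes they numbered 15 (12 to 16 and 13 to 18), and against LSK cells 13 (12 to 14 and 11 to 16). Genes lowest in granulocytes numbered 12 (11 to 13 and 11 to 15) and those passing the F test 18 (17 to 21 and 17 to 20). From LSK cells to promyelocytes, the genes called higher went from 0 to between 0 and 3 with 1 array left out, to 1 with the unadjusted p, to 1 with no fold, and to 3 without promyelocyte 3 and granulocyte 3, a setting chosen after seeing the data. In the same step, those called lower went from 1 to between 0 and 1 with 1 array left out and to 0 with all rows tested, also chosen after seeing the data. From promyelocytes to myelocytes, with 1 array left out, 0 to 1 were called higher and 0 to 1 lower, and 1 was called lower without promyelocyte 3 and granulocyte 3. The replicate number as a block left 0 and 0 called there, though the labels do not say that same-numbered arrays belong together. In the other comparisons the block changed the count against LSK cells from 13 to 14 (H3c15) and that of the F test from 18 to 19. Centring on the 75th percentile moved the median of all genes from 0.09 to 0.25 between myelocytes and granulocytes and from 0.13 to 0.36 between promyelocytes and granulocytes. Centring shifts all genes of an array alike, so the distance of the members from that median could not move. With quantile and cyclic loess normalization the members' median between myelocytes and granulocytes lay 1.57 and 1.58 below that of all genes, where it lay 1.53 below as deposited. The cause of these shifts was not tested. Signal over background limits the 7 genes that were dim in granulocytes.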
